A study of Mus musculus with 6 samples.

Results

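The unfolded protein response and the integrated stress response were followed through 31 named genes in glomeruli, the filtering units of the kidney, isolated from mice. The genes were taken by symbol from a deposited table of counts for 55401 Ensembl genes, and all 31 had counts in the libraries and passed the filter on low counts. They were divided by role into 14 chaperones and folding enzymes of the endoplasmic reticulum (ER), 5 sensors and transcription factors, 6 genes of the ATF4 and CHOP branch, and 6 genes of ER-associated degradation. Ddit3 had 2 rows, of which 1 (ENSMUSG00000025408) held counts and was used and the other was at 0 in every library.

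The study asked how transcripts of histone methyltransferases differ in diabetic kidney disease (DKD), and its labels name a Control group and a DKD group with 3 libraries each. The labels used here do not state strain, age, sex, how the disease was brought about or what the Control mice received. The title of the series concerns SETDB2 and SMAD3 in podocytes, but the labels give no genotype beyond Control and DKD. The samples are numbered without a statement that each came from its own mouse, so the p-values measure only the spread between these libraries.

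Proteins that enter the ER are folded by chaperones such as BiP and by disulfide isomerases. When unfolded protein builds up, the sensors IRE1, ATF6 and PERK signal to the nucleus. IRE1 splices the mRNA of Xbp1, ATF6 is cut to release a transcription factor, and both raise the genes of chaperones and of ER-associated degradation, which returns misfolded protein to the cytosol for destruction. PERK phosphorylates the initiation factor eIF2alpha, as do kinases that sense amino acid shortage, haem shortage or viral RNA. This slows translation in general while ATF4 is translated more, and ATF4 raises genes of amino acid supply and the transcription factor CHOP, a sequence known as the integrated stress response. Podocytes, which secrete much membrane and matrix protein, are known to depend on this folding machinery.

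Total counts per library ran from 71154026 to 83576494. Levels are in CPM, counts scaled to library size with TMM factors, and fold changes are DKD over Control from edgeR, each with its standard error (SE). Summed over 10 podocyte markers the level was 764, 631 and 587 CPM in Control and 399, 409 and 522 CPM in DKD, with Podxl (236 ± 34.9 CPM, mean ± SD, in Control) and Clic5 (110 ± 15) the most abundant. The 14 markers of the proximal tubule, the segment after the glomerulus, summed to 20200, 22800 and 43700 CPM in Control and 18800, 19900 and 10700 CPM in DKD, led by Kap, Slc34a1 and Lrp2. Proximal tubule RNA was thus present in every library, and the sum of these 14 markers was highest in Control replicate 3. All 14 had a log2 fold change below 0 (median −0.88), 8 of them at an unadjusted p under 0.05, and Slc5a2 and Slc5a12 fell past the threshold in edgeR. Of the podocyte markers 9 of 10 lay below 0, 7 at an unadjusted p under 0.05 and none past the threshold. The 10 endothelial markers summed to 505 to 765 CPM in Control and 349 to 593 CPM in DKD, the 10 mesangial and smooth muscle markers to 417 to 569 and 450 to 519 CPM, the 10 markers of later tubule segments and collecting duct to 5180 to 6110 and 4140 to 6610 CPM, and 12 markers of other leukocytes to 96.7 to 192 and 116 to 259 CPM. All 10 endothelial markers lay below 0 (median −0.52), 4 at an unadjusted p under 0.05. Of the mesangial and smooth muscle markers 8 of 10 lay below 0 (median −0.25), and 1 fell past the threshold. The later tubule markers had 5 above and 5 below 0, and the leukocyte markers 9 above and 3 below. Unlike the proximal sum, the later tubule sum was highest in DKD replicate 2 (6610 CPM), with 5410 CPM in Control replicate 3. Over all genes tested 10.9% were lower at such a p and 0.431% fell past the threshold. Member levels in such bulk samples are of glomerular and tubule RNA together. In them fewer cells of a type and less RNA per cell cannot be told apart.

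No member passed the threshold of an adjusted p under 0.05 in edgeR's quasi-likelihood test, where 1.16% of all genes tested did (228 of 19717, with 0.725% called higher and 0.431% called lower in DKD). At an unadjusted p under 0.05 there were 11 members (35.5%), 6 higher and 5 lower in DKD, against 22.6% of all genes (11.8% higher, 10.9% lower). With a trend on transcript length removed from each library, 5 members (16.1%) had such a p against 17.3% of all genes, so the share of members then lay near that of all genes. Without DKD replicate 3 there were likewise 5 members, against 3016 of 20383 genes. The 3 libraries of each group did not overlap for 14 members (45.2%), 6 with DKD above and 8 with DKD below, against 30.7% of all genes (15.5% above, 15.2% below). DESeq2 called 6 members, Hyou1, Xbp1, Ddit3, Asns and Ppp1r15a higher and Ern1 lower, where it called 13.7% of all genes. The median log2 fold change over the 31 members was −0.04, with 14 members above 0 and 17 below, and 49.8% of all genes lay below 0. All 6 genes of the ATF4 and CHOP branch lay above 0, whereas each of the other roles held members on both sides. The roles are taken in turn.

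**Figure D1:**
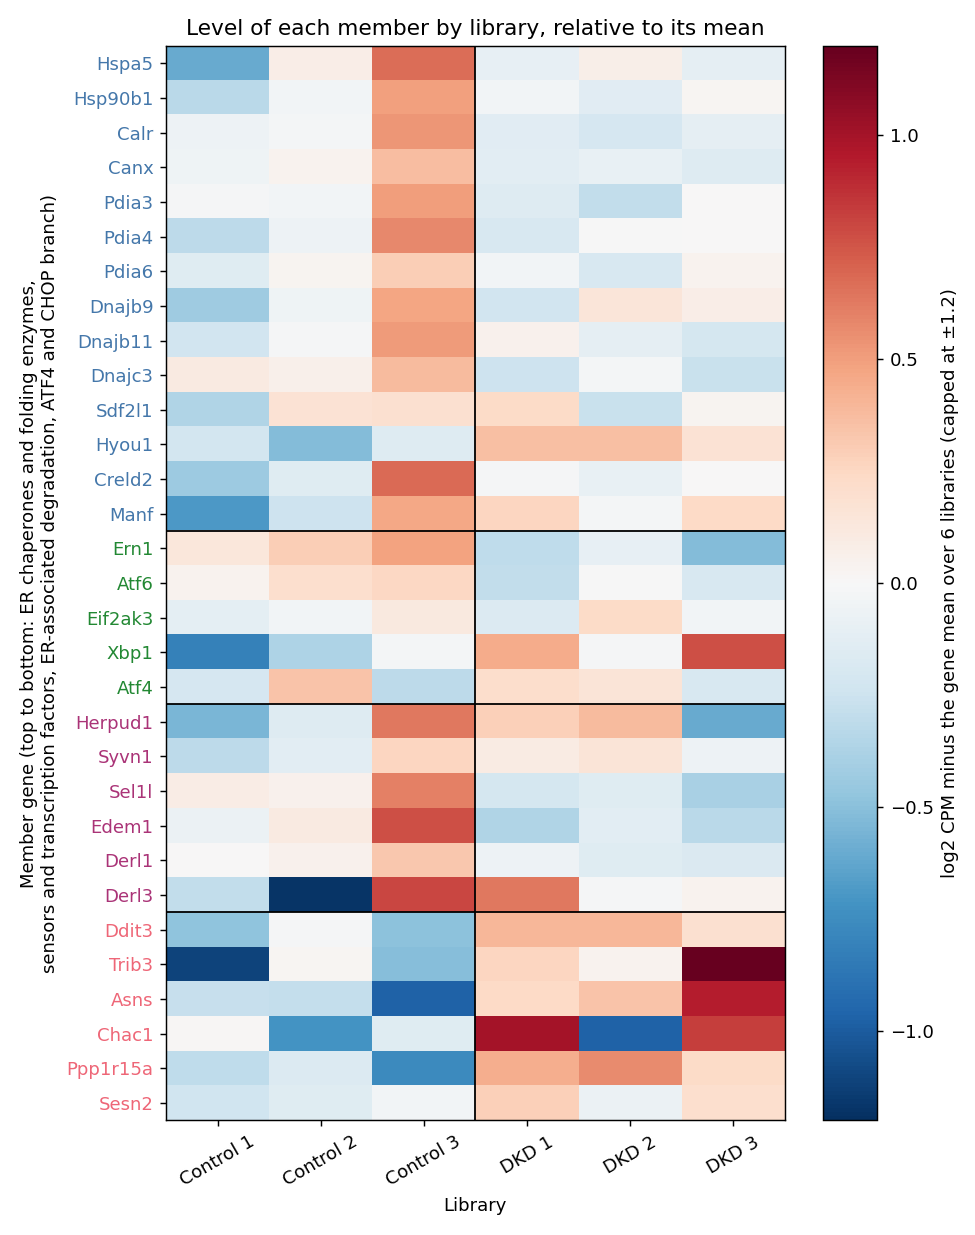
Each row is a member gene and each column a library; colour gives log2 CPM minus the gene's mean over the 6 libraries. Control replicate 3 is the highest of the 6 libraries for 20 of the 31 members, and the 6 genes of the ATF4 and CHOP branch at the bottom have higher means in DKD.

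The ATF4 and CHOP branch was the role in which every member had a higher mean in DKD. Its 6 genes had a median log2 fold change of 0.78, with 4 of them at an unadjusted p under 0.05 and 4 with all DKD libraries above all Control libraries. The whole table had a median of 0.0029, with 11.8% of genes higher at such a p and 15.5% in the latter position. All 6 stayed above 0 in each of the 17 alternative settings, except that Chac1 was not tested under a filter of 1 CPM in 3 libraries. The smallest adjusted p in this role was 0.0711, so none of these genes passed in edgeR.

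Ddit3 encodes CHOP, a transcription factor associated with cell death under prolonged stress. It was measured at 10.9, 15.1 and 10.8 CPM in Control replicates 1 to 3 and at 20.2, 20.1 and 17.4 CPM in DKD replicates 1 to 3. All DKD libraries lay above all Control libraries, with a log2 fold change of 0.65 ± 0.17 (edgeR adjusted p 0.0923). DESeq2 gave Ddit3 an adjusted p of 0.0143. Another gene model, also named Ddit3, covers 6.13% of the exonic bases of the row used, on the same strand.

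Ppp1r15a encodes GADD34, which brings a phosphatase to eIF2alpha and so ends the translational block. Its levels were 15.3, 16.8 and 11.1 CPM in Control and 25.5, 27.8 and 22.2 CPM in DKD. The groups did not overlap, and the log2 fold change of Ppp1r15a was 0.81 ± 0.18, with an adjusted p of 0.0711 by edgeR and 0.00278 by DESeq2. It was 0.65 without Control replicate 3, the lowest library for this gene. Ppp1r15a is also known as a gene of the immediate-early kind, and the 11 listed immediate-early genes summed to 281, 388 and 193 CPM in Control and 348, 405 and 416 CPM in DKD. Of these 11 genes 9 had a higher mean in DKD and none passed, and the part of tissue handling in the Ppp1r15a values was not tested.

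Asns encodes asparagine synthetase, a textbook target of ATF4. It was measured at 5.39, 5.34 and 3.33 CPM in Control and 7.69, 8.28 and 12.6 CPM in DKD. The mean was 2.03 times as high in DKD, with no overlap of the groups and a log2 fold change of 1.02 ± 0.28 (edgeR adjusted p 0.103, DESeq2 adjusted p 0.0101). Trib3, a pseudokinase induced by CHOP and ATF4, was scarce, at 0.837, 1.84 and 1.27 CPM in Control and 2.17, 1.87 and 4.46 CPM in DKD. The lowest DKD value of Trib3 lay only just above the highest Control value, and the log2 fold change was 1.11 ± 0.46 (adjusted p 0.208), or 0.62 ± 0.41 without DKD replicate 3.

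Sesn2, a stress-induced inhibitor of mTORC1 signalling, was the most abundant gene of the branch. Its levels of 53.7, 57.1 and 61.8 CPM in Control and 76.9, 60.4 and 72.5 CPM in DKD overlapped, because DKD replicate 2 lay within the Control range. The log2 fold change was 0.28 ± 0.13 (adjusted p 0.238). Chac1, which degrades glutathione, had between 21 and 76 counts per library, and its log2 fold change of 0.76 ± 0.57 did not stand out from that spread (adjusted p 0.473).

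**Figure D2:**
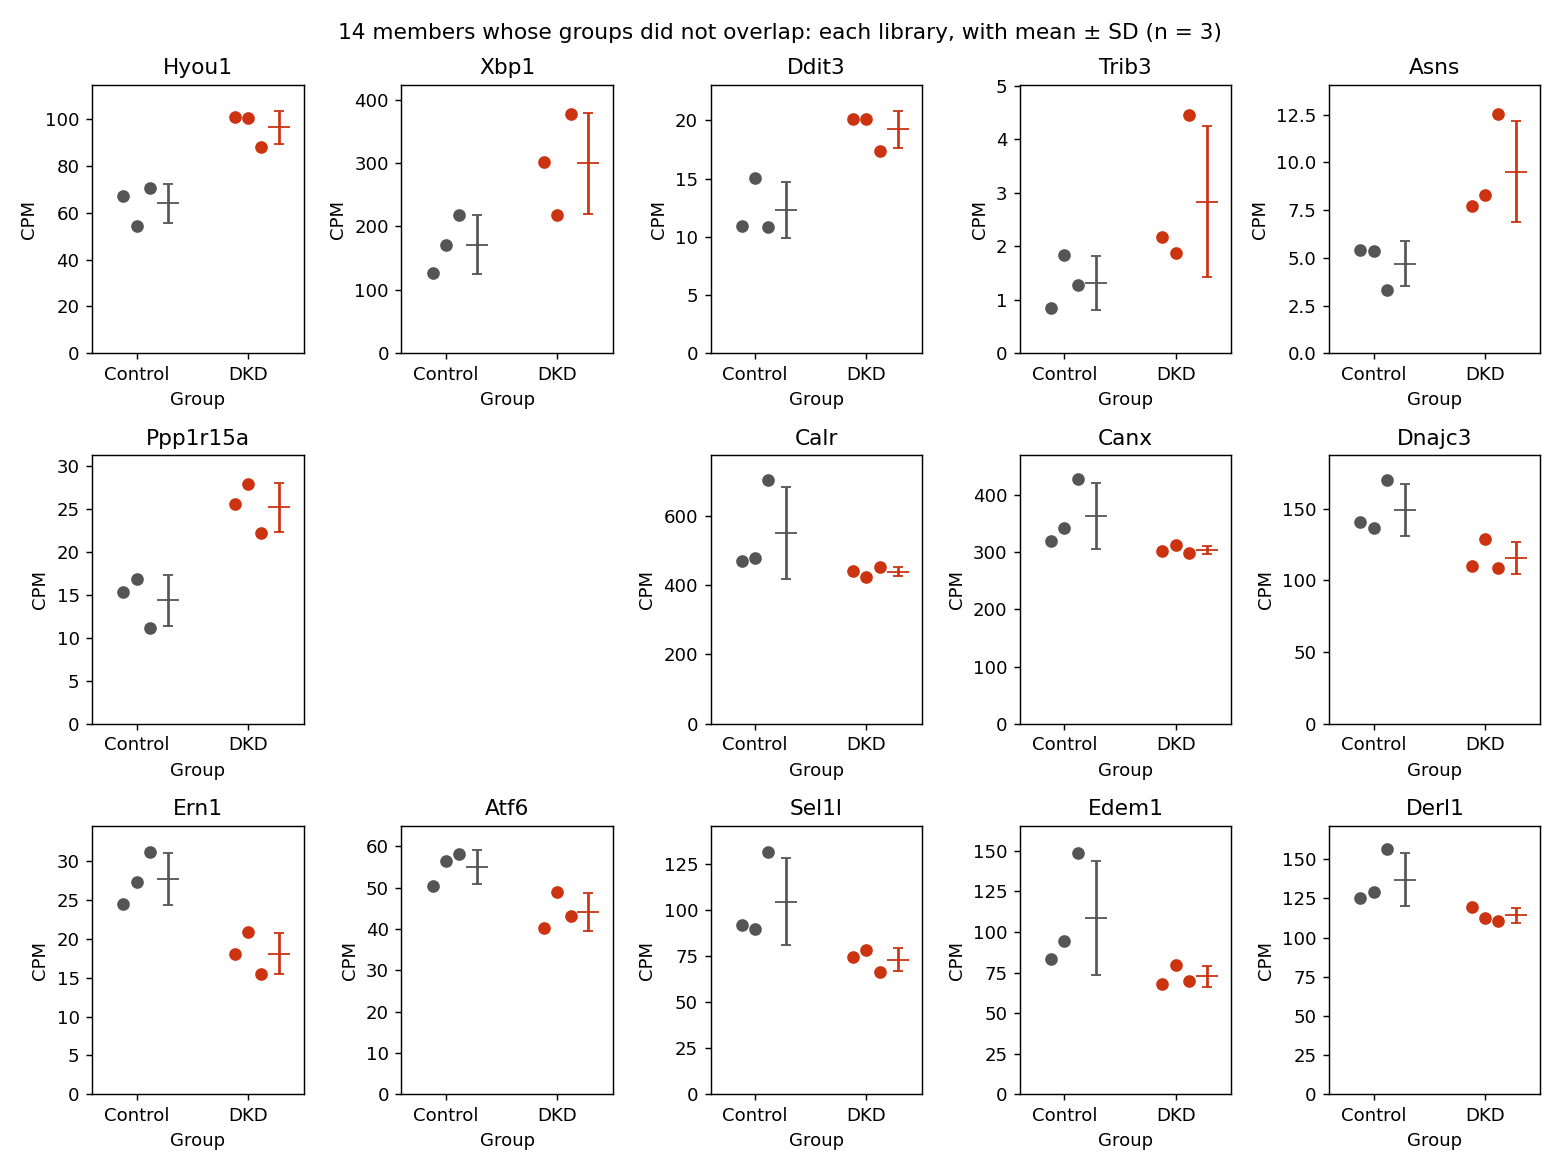
CPM of the 14 members whose groups did not overlap, each panel with its own axis from 0; dots are libraries, and the horizontal mark and bar give the mean ± SD of 3 libraries. Hyou1, Xbp1, Ddit3, Trib3, Asns and Ppp1r15a lie higher in DKD, and Calr, Canx, Dnajc3, Ern1, Atf6, Sel1l, Edem1 and Derl1 lie lower, Calr and Canx by small margins.

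Sequence upstream of these genes was read from the RefSeq promoter table (build GRCm38.p6, which is not the build of the counts), which held 27 of the 31 members. The 250 bases before each start were searched on both strands for TGATGNAA, the core of the C/EBP-ATF response element that ATF4 binds together with C/EBP factors. It was found in 3.45% of all promoters in the table, in 2 of 6 genes of the ATF4 and CHOP branch and in Herpud1 of the degradation genes. The stretches around these matches show where the element lies in the genes concerned. The match in Asns begins 23 bases before the start, in chr6:7693210-7693252 on the minus strand. That in Chac1 begins 193 bases before the start, in chr2:119351029-119351076 on the plus strand, and that in Herpud1 begins 112 bases before it, in chr8:94386297-94386344 on the plus strand. They are written 5′ to 3′ along the gene, with the fixed bases of the element in capitals. In Chac1 and Herpud1 the element reads on the opposite strand.
Asns: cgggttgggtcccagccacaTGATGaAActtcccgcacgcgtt
Chac1: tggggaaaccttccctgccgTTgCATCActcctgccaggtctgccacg
Herpud1: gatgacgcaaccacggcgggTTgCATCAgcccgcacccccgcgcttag
Of these 3 genes Asns alone had groups that did not overlap. A match is a description of letters, and factor binding was not measured.

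A further 34 genes were listed as targets of ATF4. One rose in edgeR's test and none fell, where 0.725% of all genes rose and 0.431% fell. The list had a median log2 fold change of 0.28, with 22 members above 0 and 12 below. At an unadjusted p under 0.05, 8 were higher and 1 was lower, against 11.8% and 10.9% of all genes. The gene that rose was Slc6a9, the glycine transporter GLYT1, with 27.2, 25.6 and 25.5 CPM in Control and 70.4, 62.2 and 92.7 CPM in DKD. The Control libraries lay within a narrow range and every DKD library was above 60 CPM, and the log2 fold change was 1.53 ± 0.16 (edgeR adjusted p 0.0192). The call of Slc6a9 was lost without Control replicate 1 (adjusted p 0.0937), Control replicate 2 (0.0794) or DKD replicate 1 (0.0885), while the log2 fold change stayed between 1.35 and 1.63 over all alternatives.

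Several further targets were chosen after their values were seen. Of the 8 listed aminoacyl-tRNA synthetases, which charge tRNAs with amino acids, Sars1 (log2 fold change 0.67 ± 0.15), Cars1 (0.74 ± 0.16) and Aars1 (0.35 ± 0.11) had an unadjusted p under 0.05, with adjusted p-values of 0.0716, 0.0676 and 0.126 by edgeR. Gars1 (0.16 ± 0.09) was higher in all DKD libraries, at an unadjusted p of 0.131 in edgeR. Nars1 (−0.03 ± 0.11), Iars1 (−0.05 ± 0.13), Wars1 (−0.15 ± 0.10) and Eprs1 (−0.25 ± 0.11) were level or lower. Gdf15, a secreted stress hormone, was at 19.9, 16.1 and 3.75 CPM in Control and 39.9, 38.7 and 79.3 CPM in DKD, without overlap (1.99 ± 0.59, adjusted p 0.115). Gpt2 (0.75 ± 0.18) and the translation repressor Eif4ebp1 (1.10 ± 0.34) were higher in all DKD libraries, and Vldlr (−0.43 ± 0.12), a lipoprotein receptor listed as a target, was lower in all of them. DESeq2 called Sars1, Cars1, Aars1, Gdf15, Gpt2, Eif4ebp1 and Vldlr, all of which missed the threshold in edgeR.

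The 5 sensors and transcription factors went in different directions. Ern1 and Atf6 were lower in DKD and Xbp1 was higher, each without overlap, whereas Eif2ak3 and Atf4 were level. Of the 5, 3 had an unadjusted p under 0.05 and none passed in edgeR. Over all genes tested 22.6% had such a p and 30.7% had groups that did not overlap. With the length trend removed 1 of the 5 had such a p, against 17.3% of all genes.

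Ern1 encodes IRE1alpha, the sensor that splices Xbp1. It was measured at 24.5, 27.4 and 31.2 CPM in Control and 18.1, 20.9 and 15.5 CPM in DKD. The DKD mean was 0.654 of the Control mean, with a log2 fold change of −0.61 ± 0.15 (adjusted p 0.0851 by edgeR and 0.0150 by DESeq2). Atf6 encodes the sensor that is cut to a transcription factor, and its levels were 50.5, 56.5 and 58.3 CPM in Control and 40.2, 49.0 and 43.2 CPM in DKD. The highest DKD value of Atf6 was close below the lowest Control value, and the log2 fold change was −0.32 ± 0.12 (adjusted p 0.169).

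Xbp1 encodes the transcription factor that IRE1alpha activates by splicing. Its levels were 126, 171 and 218 CPM in Control and 302, 218 and 378 CPM in DKD. DKD replicate 2 and Control replicate 3 were nearly equal, so the groups only just failed to overlap. The log2 fold change was 0.80 ± 0.26, with an adjusted p of 0.138 by edgeR and 0.0368 by DESeq2. It was 1.01 without Control replicate 3. Counts per gene do not separate spliced from unspliced Xbp1, so these values are total mRNA.

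Plasma cells are known to carry much Xbp1, and the 14 listed plasma cell markers summed to 124, 346 and 211 CPM in Control and 817, 1110 and 1330 CPM in DKD. Of 13 tested markers 12 were higher in DKD and 2 passed in edgeR, Ighg1 and Ighg3. The 1 that was lower was Prdm1, below Control in every DKD library (log2 fold change −0.70 ± 0.33). Irf4, counted as higher, was level (0.01 ± 0.54). The most abundant were Igha, Igkc and Ighg2c, with DKD means of 303 ± 198, 350 ± 72.9 and 126 ± 92.2 CPM. Mzb1, named after its values were seen, a chaperone-like protein of antibody-secreting cells, was at 0.846 to 1.84 CPM in Control and 3.45 to 3.92 CPM in DKD, while Tnfrsf17 was at 0 in all Control libraries and in DKD replicate 3. Within DKD, Xbp1 was highest in replicate 3 and lowest in replicate 2, and the marker sum was highest in replicate 3 and lowest in replicate 1. The part of plasma cell RNA in the Xbp1 values was not tested.

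Eif2ak3, which encodes the sensor PERK, averaged 41.2 ± 3.46 CPM in the Control group against 41.9 ± 5.89 CPM in DKD (log2 fold change 0.02 ± 0.13). Atf4 was at 112, 164 and 104 CPM in Control and 149, 144 and 113 CPM in DKD. The groups overlapped widely, with a log2 fold change of 0.10 ± 0.20 (adjusted p 0.819). ATF4 is controlled mainly at translation, which the mRNA level does not show.

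Among 26 other stress kinases, transducers and stress factors, 2 rose and none fell in edgeR's test, against 0.725% and 0.431% of all genes. Cebpb, a C/EBP factor of stress and inflammation that can pair with ATF4, was at 25.7, 29.7 and 21.1 CPM in Control and 74.0, 62.0 and 99.0 CPM in DKD. Every DKD library was above 60 CPM, and the log2 fold change was 1.62 ± 0.21 (edgeR adjusted p 0.0263). Traf2, an adaptor that IRE1alpha and TNF receptors recruit, went from 18.1 ± 1.95 to 33.2 ± 2.62 CPM (0.87 ± 0.13, edgeR adjusted p 0.0353). Without Control replicate 1, Control replicate 2, DKD replicate 1 or DKD replicate 3 the adjusted p of Cebpb was 0.129, 0.0804, 0.109 and 0.0681 and that of Traf2 was 0.131, 0.121, 0.137 and 0.120, in that order. With no filter on low counts they were 0.0540 and 0.0665, and with library totals only that of Traf2 was 0.0890. The other eIF2alpha kinases Eif2ak1 (−0.16 ± 0.16), Eif2ak2 (0.06 ± 0.17) and Eif2ak4 (0.12 ± 0.19), also chosen after their values were seen, were level within their error. Bax, a mediator of cell death named after its values were seen, was higher in all DKD libraries (0.81 ± 0.19, adjusted p 0.0755).

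**Figure D3:**
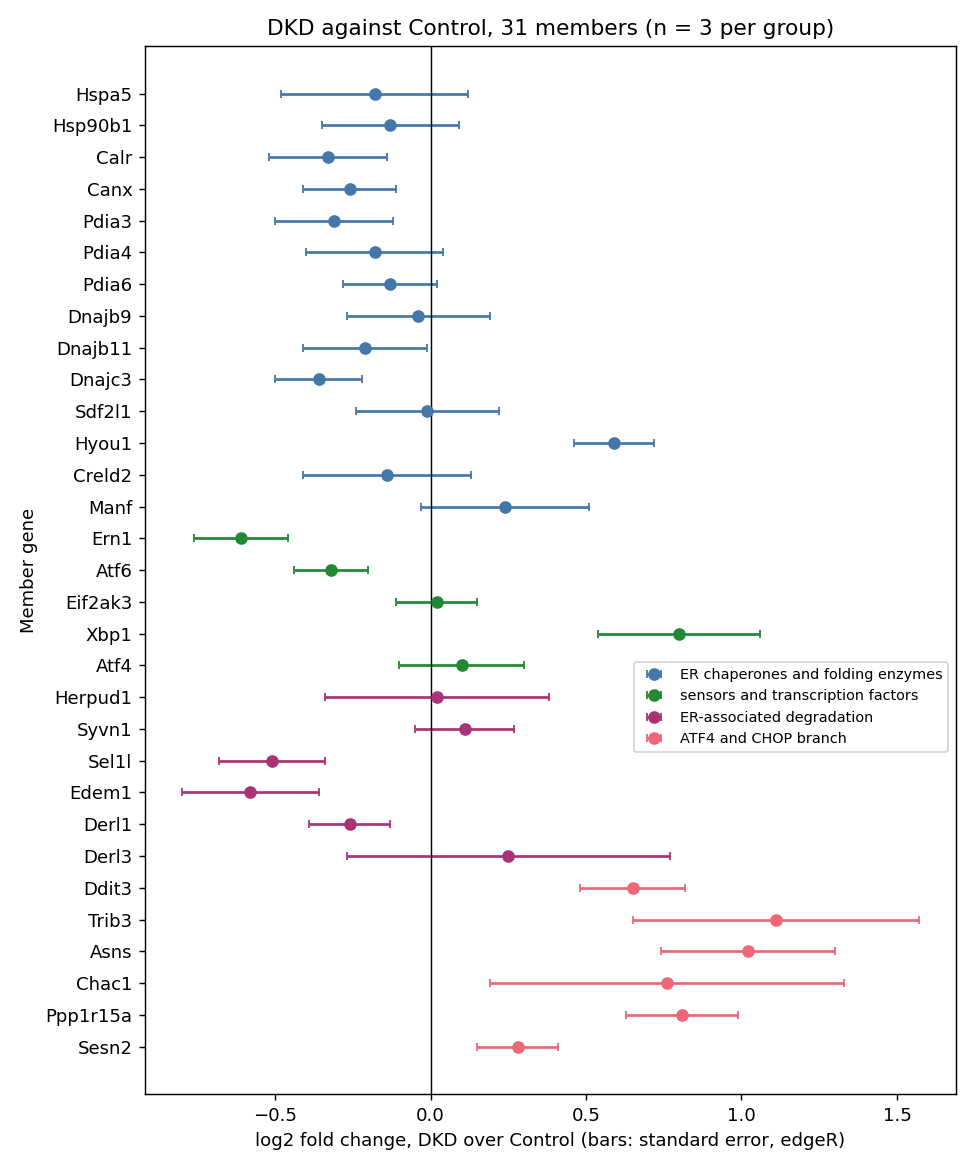
Dots give the log2 fold change of each member, DKD over Control, and bars its standard error in edgeR, with 3 libraries per group. The ATF4 and CHOP branch lies between 0.28 and 1.11, and of the chaperones only Hyou1 and Manf lie above 0.

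The chaperones and folding enzymes were not higher in DKD as a group. Of 14 genes 12 had a log2 fold change below 0, with a median of −0.16 and a range from −0.36 to 0.59. One was higher and 1 lower at an unadjusted p under 0.05, against 11.8% and 10.9% of all genes, and none passed in edgeR. Per kilobase of the longest transcript Calr was the most abundant member of all, at 252 CPM per kb in Control, and Chac1 the least, at 0.292 CPM per kb.

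Hspa5 encodes BiP, the main ER chaperone and the usual marker of the unfolded protein response. It was measured at 263, 423 and 637 CPM in Control and 374, 421 and 372 CPM in DKD. The DKD libraries lay inside the wide Control range, with a log2 fold change of −0.18 ± 0.30 (adjusted p 0.766). Hsp90b1, which encodes the chaperone GRP94, was at 302, 369 and 530 CPM in Control and 369, 343 and 384 CPM in DKD (−0.13 ± 0.22), again with the DKD libraries inside the Control range.

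Calr and Canx encode calreticulin and calnexin, the lectin chaperones that hold glycoproteins during folding. Calr was at 468, 479 and 702 CPM in Control and 442, 423 and 451 CPM in DKD. Every DKD library was below every Control library, but by a small margin for Control replicates 1 and 2, and the log2 fold change was −0.33 ± 0.19 (adjusted p 0.357). Canx showed the same order, with a log2 fold change of −0.26 ± 0.15 (adjusted p 0.358). Pdia3, the disulfide isomerase that works with them, was at 397, 391 and 566 CPM in Control and 360, 327 and 403 CPM in DKD, with overlap (−0.31 ± 0.19). Pdia4 and Pdia6, disulfide isomerases too, had −0.18 ± 0.22 and −0.13 ± 0.15.

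Dnajc3, the co-chaperone that also inhibits PERK, was the 1 chaperone lower at an unadjusted p under 0.05. Its levels were 141, 136 and 170 CPM in Control and 110, 129 and 109 CPM in DKD, without overlap (−0.36 ± 0.14, adjusted p 0.177). The co-chaperones Dnajb9 (−0.04 ± 0.23) and Dnajb11 (−0.21 ± 0.20), Sdf2l1 (−0.01 ± 0.23), the stress-induced Creld2 (−0.14 ± 0.27) and the secreted factor Manf (0.24 ± 0.27) all overlapped between groups. Other transcripts hold 10.8% of the 31-base words of Dnajb9, so part of its reads can be shared.

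Hyou1 was the exception. It encodes the large chaperone GRP170, which exchanges nucleotide on BiP and is also known to respond to low oxygen. It was measured at 67.1, 54.6 and 70.6 CPM in Control and 101, 101 and 88.3 CPM in DKD. The groups did not overlap, with a DKD mean 1.51 times the Control mean and a log2 fold change of 0.59 ± 0.13 (adjusted p 0.0715 by edgeR and 0.00578 by DESeq2). Over the alternatives the log2 fold change of Hyou1 ran from 0.47 to 0.69.

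Control replicate 3 weighed on the chaperones more than on most genes. It was the highest of the 6 libraries for 12 of 14 chaperones and for 6 of 6 degradation genes, against 23.8% of all genes tested. With library totals as the only scaling it was highest for 10 of 14 and 4 of 6, against 11.5% of all genes. Without it 9 of 14 chaperones had a log2 fold change above 0 in place of 2, the median was 0.10, Hspa5 was at 0.18 ± 0.21 and Creld2 at 0.25 ± 0.13. Canx, Calr, Pdia3, Pdia6 and Dnajc3 remained below 0 in that fit, at −0.12, −0.11, −0.12, −0.01 and −0.26. The same library held the largest sum of proximal tubule markers, and the part of tubule RNA in the chaperone levels was not tested.

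**Figure D4:**
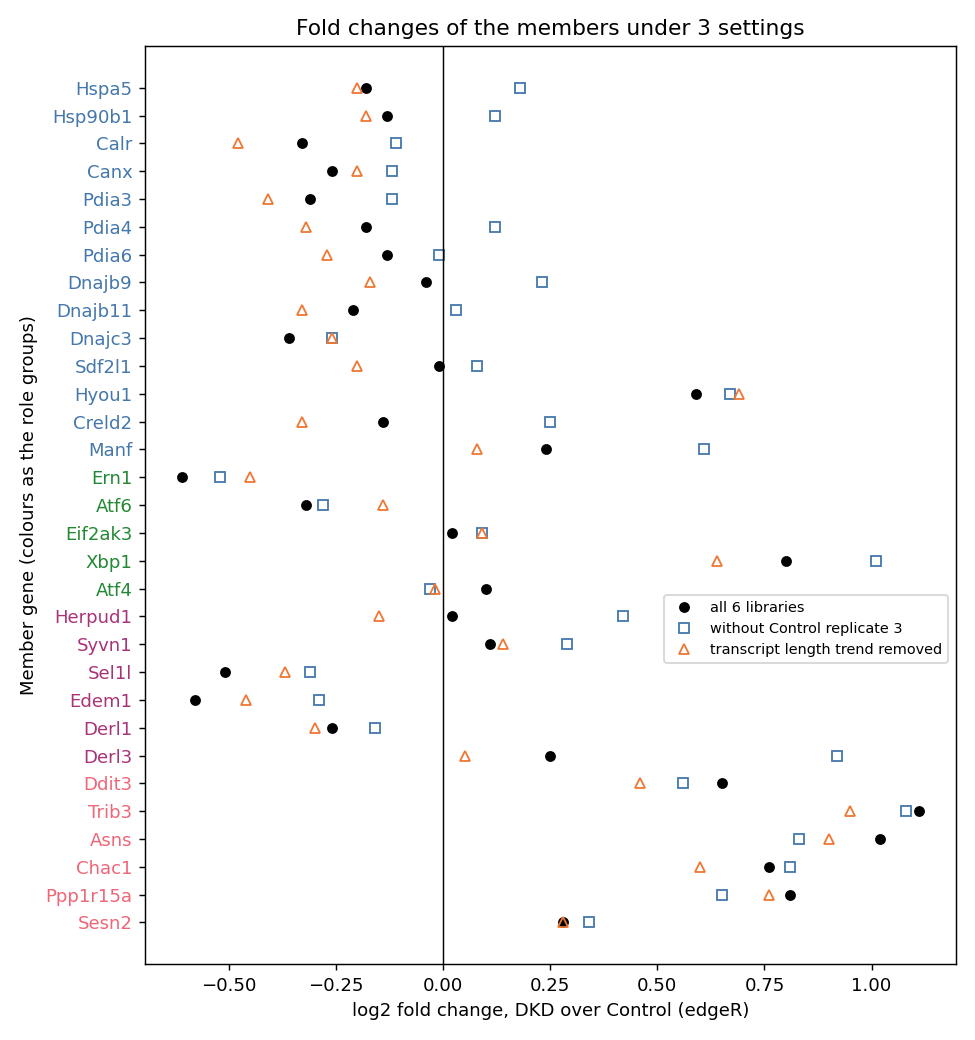
Log2 fold changes of the 31 members, DKD over Control, with all libraries (filled circles), without Control replicate 3 (squares) and with a trend on transcript length removed (triangles). Without Control replicate 3, 9 of 14 chaperones lie above 0, Hspa5 moving from −0.18 to 0.18, while the ATF4 and CHOP branch stays above 0.

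Most of the chaperone promoters searched held a sequence that few others hold. It was chosen for its known part in the ER stress response, so its presence here is a description and not a test. The ER stress response element, CCAAT and CCACG with 9 bases between them, to which the factor NF-Y and activated ATF6 are known to bind, was present on either strand in 7 of 12 chaperone promoters in the table and in 2 of 5 degradation genes, against 37 of 32851 promoters (0.113%). No match lay in the 250 bases before the start of the sensors or of the ATF4 and CHOP branch, which says only that these letters are not in that window. A further element, TGACGTGG, was in 0.563% of all promoters and in none of the members'. The stretches below carry the element in Hspa5, where it begins 65 bases before the start (chr2:34772005-34772063, plus strand), in Calr (162 bases, chr8:84847055-84847113, minus strand, element on the opposite strand), in Canx (145 bases, chr11:50325780-50325838, minus strand), in Dnajc3 (105 bases, chr14:118937807-118937865, plus strand) and in the degradation gene Syvn1 (44 bases, chr19:6046512-6046570, plus strand). The build is GRCm38.p6, the sequences run 5′ to 3′ along the gene, and capitals mark the fixed bases of the element.
Hspa5: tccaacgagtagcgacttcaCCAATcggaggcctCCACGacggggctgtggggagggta
Calr: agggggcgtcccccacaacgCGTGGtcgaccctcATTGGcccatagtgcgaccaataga
Canx: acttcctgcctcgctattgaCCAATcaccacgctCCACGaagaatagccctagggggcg
Dnajc3: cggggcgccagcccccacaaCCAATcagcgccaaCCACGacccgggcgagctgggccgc
Syvn1: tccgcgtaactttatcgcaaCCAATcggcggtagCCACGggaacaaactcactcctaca
Of the 9 members with the element (Calr, Canx, Creld2, Dnajc3, Hsp90b1, Hspa5, Pdia6, Derl3 and Syvn1) 7 had a log2 fold change below 0, where 49.8% of all genes did, and the median was −0.14. One of them, Dnajc3, had an unadjusted p under 0.05. Without Control replicate 3, 4 of the 9 lay below 0 and the median was 0.12. Of 26 other genes with the element 12 were tested, with a median of 0.47, 8 above 0 and 3 below. Of these, 1 had an unadjusted p under 0.05, against 22.6% of all genes, and 0 passed in edgeR. Some had an error larger than their change, such as Xlr3c (0.725 ± 1.142) and 1700122E12Rik (0.922 ± 1.513). No value without Control replicate 3 is given for this set.

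Of the 6 genes of ER-associated degradation none passed in edgeR. In 3 of them the groups did not overlap, with DKD the lower, 2 of these at an unadjusted p under 0.05, and the other 3 overlapped. Of all genes tested, 15.2% had DKD below without overlap and 10.9% were lower at such a p. With the length trend removed 0 of the 6 had such a p. Sel1l, the adaptor of the degradation complex, was at 91.9, 89.6 and 131 CPM in Control and 74.6, 78.3 and 66.2 CPM in DKD. All DKD libraries were below all Control libraries, with a log2 fold change of −0.51 ± 0.17 (adjusted p 0.145). Edem1, a lectin that hands over misfolded glycoproteins, was at 83.1, 94.3 and 149 CPM in Control and 68.1, 79.9 and 70.0 CPM in DKD, with no overlap (−0.58 ± 0.22, adjusted p 0.181). Derl1, a channel component, was at 125, 129 and 156 CPM in Control and 120, 113 and 111 CPM in DKD (−0.26 ± 0.13, unadjusted p 0.0756). Other transcripts hold 8.6% of the 31-base words of Derl1.

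The remaining degradation genes overlapped between groups. Herpud1, a scaffold of the complex, spread widely within both groups, at 240, 315 and 545 CPM in Control and 428, 456 and 230 CPM in DKD. Its lowest 2 values came from different groups and the log2 fold change was 0.02 ± 0.36. Syvn1, the ubiquitin ligase HRD1 that pairs with SEL1L, had 0.11 ± 0.16. Derl3, a derlin typical of secretory cells, had between 55 and 203 counts per library and a log2 fold change of 0.25 ± 0.52. Without Control replicate 3 the log2 fold changes were −0.31 for Sel1l, −0.29 for Edem1, 0.42 for Herpud1 and 0.92 for Derl3.

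Transcript length moved with the direction of the members. The longest transcript had a median of 5609 bases for the 8 members with DKD below Control and 2077.5 bases for the 6 with DKD above. With the length trend removed, the log2 fold changes of these 8 were −0.45 for Ern1, −0.14 for Atf6, −0.37 for Sel1l, −0.46 for Edem1, −0.26 for Dnajc3 and −0.20 for Canx, all nearer 0 than before, and −0.48 for Calr and −0.30 for Derl1, which were farther from it. Of the 5 lower members at an unadjusted p under 0.05 only Ern1 kept one (0.0408), while it was 0.363 for Atf6, 0.210 for Dnajc3, 0.146 for Sel1l and 0.129 for Edem1. For the 6 higher members the log2 fold change in the same fit was 0.46 for Ddit3, 0.76 for Ppp1r15a, 0.90 for Asns, 0.69 for Hyou1, 0.64 for Xbp1 and 0.95 for Trib3, the last 2 with an unadjusted p of 0.0673 and 0.0590. The part of transcript length in these values was not tested further.

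The other genes of folding and degradation that were listed beside the members gave no call in edgeR. Of 32 genes of folding and glycoprotein processing, 14 had a log2 fold change above 0 and 18 below, with a median of −0.03, and 3 were higher and 2 lower at an unadjusted p under 0.05. Stt3a, a catalytic subunit of the oligosaccharyltransferase, was below Control in every DKD library (−0.42 ± 0.12, adjusted p 0.113), and the prolyl isomerase Fkbp2 had 0.53 ± 0.17 (adjusted p 0.133). Of 24 further degradation genes, 8 were above 0 and 16 below, with a median of −0.11, and 2 were higher and 3 lower at an unadjusted p under 0.05. Of all genes, 11.8% were higher and 10.9% lower at such a p. Selenos, a selenoprotein of the degradation complex, was below Control in every DKD library (−0.47 ± 0.12, adjusted p 0.0851), whereas Selenok was above it (0.45 ± 0.15, adjusted p 0.138). Over the 116 other genes together 3 rose and none fell, against 0.725% and 0.431% of all genes, and the median was 0.01.

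**Figure D5:**
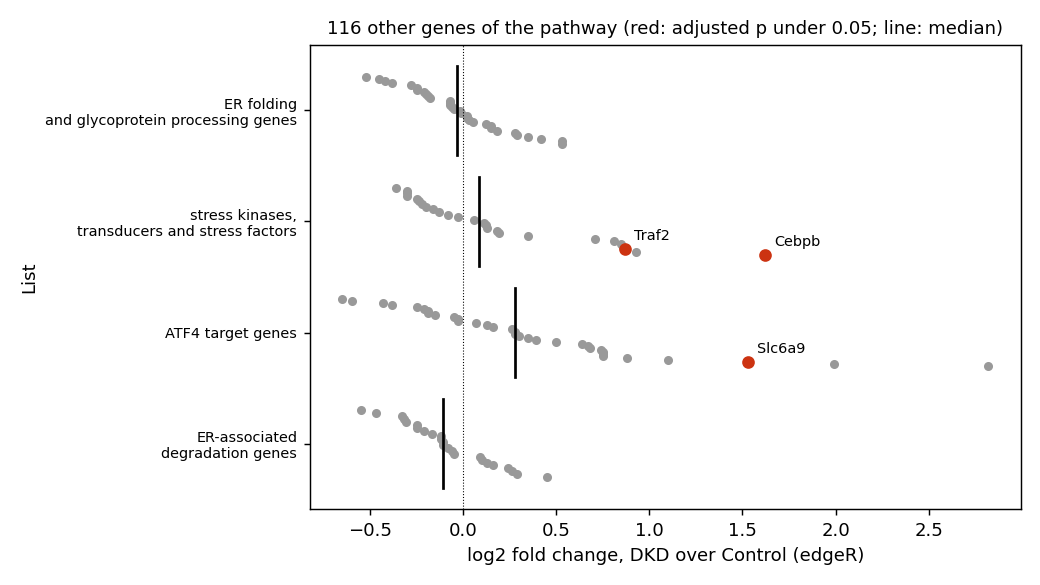
Each dot is 1 of 116 other listed genes, placed by its log2 fold change, DKD over Control; black lines are list medians and red dots passed an adjusted p under 0.05 in edgeR. Cebpb, Traf2 and Slc6a9 are the 3 that passed, and the list of ATF4 targets has the highest median, 0.28.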

How the data were processed

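Polyadenylated RNA of isolated mouse glomeruli was made into dUTP libraries and sequenced in paired reads, per the labels' protocols. The deposited table of 3 Control and 3 DKD libraries holds whole-number counts for each Ensembl gene, which the authors had not normalized. The submitters' processing notes name fastp, HISAT2, StringTie, edgeR and the build GRCm39. Tool versions, annotation and strand use are not stated there, nor whether the whole numbers were counted from reads or derived from StringTie's coverage. They were used as counts. Symbols, transcript lengths and overlaps came from GENCODE M21 (GRCm38).

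Genes were kept by filterByExpr (minimum count 10), scaled with TMM and compared by quasi-likelihood F tests in edgeR 4.0.16 (R 4.3.3), Benjamini-Hochberg adjusted over 19717 genes. An SE is the absolute log2 fold change over the square root of F. Limma 3.58.1 (voom), DESeq2 1.42.0 and the settings of the closing section were alternatives, and a length trend was a spline with 5 degrees of freedom. The procedure was also run on simulated counts, which held no outlying library and no trend on transcript length. Members and lists were chosen with earlier results of these data known. All members are named, with up to 4 other genes past the threshold per list or else the 2 with the smallest p. For marker lists other than podocyte, proximal tubule and plasma cell, sums and counts are given without single genes. No library duplicated another of its group, the closest pair differing by a mean chi-square of 36.1 per gene. Promoters came from RefSeq, and Hyou1, Manf, Atf6 and Derl1 had no entry.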

Additional observations from a re-analysis of the deposited data

How the results depend on the processing

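No member passed in edgeR or limma-voom under any alternative, the smallest adjusted p being 0.0544, whereas DESeq2 called 6. For all genes, 228 calls became 516 with the 1 CPM filter, 56 with no filter, 2483 with DESeq2 and 0 with the replicate block, and 1 to 386 with a library left out (1, 13 and 386 when Control replicate 1, 2 or 3 was omitted, and 4 and 10 when it was DKD replicate 1 or 3). Library totals alone moved the median of all genes to −0.13 and the split from 143 higher and 85 lower to 101 higher and 174 lower. The 3 calls among other pathway genes became 1 with no filter, 13 with DESeq2, 0 with the block and 0 to 3 with a library left out. With a library left out, medians ran from −0.35 to 0.10 for chaperones, −0.11 to 0.05 for sensors (lowest without DKD replicate 2), 0.67 to 0.91 for the ATF4 and CHOP branch and −0.27 to 0.06 for degradation genes. The labels do not state that equal replicate numbers pair the libraries. Deviations of same-numbered libraries correlated at −0.183, 0.066 and −0.224, and not every library correlated best with its own number. With 3 libraries per group these correlations cannot decide whether the libraries were paired. With the replicate block the adjusted p was 0.158 for Cebpb, 0.167 for Traf2 and 0.133 for Slc6a9, 0 of 31 members passed, and the ATF4 and CHOP median was 0.74.

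Of 526 member values under alternatives 27 had the other sign, all among 12 members with small changes. Outside the fits without a library these were Dnajb9 at 0.00 with limma-voom and at 0.00 with the replicate block, Sdf2l1 at 0.01 with upper quartile factors, and, with library totals only, Eif2ak3 at −0.09, Atf4 at −0.05 and Herpud1 at −0.06. With the length trend removed Atf4 was at −0.02 and Herpud1 at −0.15. With a library left out the values ran from −0.45 to 0.18 for Hspa5, −0.30 to 0.12 for Hsp90b1, −0.35 to 0.12 for Pdia4, −0.23 to 0.23 for Dnajb9, −0.36 to 0.03 for Dnajb11, −0.17 to 0.09 for Sdf2l1, −0.36 to 0.25 for Creld2, −0.11 to 0.11 for Eif2ak3, −0.03 to 0.32 for Atf4, −0.21 to 0.42 for Herpud1, −0.01 to 0.29 for Syvn1 and −0.10 to 0.92 for Derl3. The causes were not tested. Chac1, with 21 to 76 counts per library, had the fewest counts of the members.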
